A study of Homo sapiens with 26 samples.

Results

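PRDM1, XBP1, SDC1, MZB1, CD38, TNFRSF17 and FKBP11, 7 genes of plasma cell differentiation chosen by name, were followed in lymphoma cells with reduced OCT2 or reduced levels of its coactivator. All 7 were found among the 58592 genes to which the deposited transcripts were matched. When a germinal centre B cell becomes a plasma cell, the repressor BLIMP1 (encoded by PRDM1) shuts down the B cell programme, and the transcription factor XBP1 enlarges the endoplasmic reticulum for antibody secretion. XBP1 needs an unusual step to become fully active: the endoplasmic reticulum enzyme IRE1 cuts a short intron out of its mRNA in the cytoplasm. OCT2 (POU2F2) is a transcription factor that binds the octamer motif in B cells, and OCA-B (POU2AF1) is the coactivator that OCT factors recruit. Mouse B cells that lack either of them give impaired antibody responses.

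Stranded mRNA libraries, sequenced from both ends, were made from 2 established human lines of germinal centre type diffuse large B cell lymphoma. Every cell, controls included, carried a dead Cas9 joined to BFP and the KRAB repressor, driven by the SFFV promoter and delivered by lentivirus, and a second lentivirus brought the guide RNAs. OCI-Ly7, grown in IMDM with 20% FBS, had 6 libraries with POU2AF1 knockdown, 8 with POU2F2 knockdown and 4 with non-targeting control guides. SUDHL4, grown in RPMI-1640 with 10% FBS, had 1 library with POU2AF1 knockdown, 2 with POU2F2 knockdown and 1 control. The labels give 48 h for replicate 3 of both OCI-Ly7 knockdowns and no time for most other libraries. They also give 48 h for OCI-Ly7 control file 3, which was the sum of control files 1 and 2, kept here as control replicate 1.

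The 22 libraries held 26764630 to 60154198 estimated reads. The targeted gene was lower in its own knockdown in both lines, with fitted log2 values of -1.57 to -3.00, although the OCI-Ly7 value for POU2F2 missed the threshold (edgeR adjusted p = 0.056). All 6 B cell markers examined were above 1 CPM (estimated counts scaled to library size, by TMM within each line) in every group. Of the 6 germinal centre markers LMO2 and SERPINA9 were under 1 CPM in OCI-Ly7 and none was under 1 CPM in SUDHL4. T and NK cell markers summed to at most 3.58 CPM and myeloid markers to at most 1.5 CPM in any library. One library stood apart in RNA composition: OCI-Ly7 POU2AF1 knockdown replicate 1 had 25.8% of its reads on mitochondrially encoded genes, against 7.04% to 14% in the others. OCI-Ly7 libraries were made in 2 batches, and all but 1 of those of batch 2 carry a series mark in their labels (s0 to s3). The labels do not say that replicates are separate cultures, so the p-values measure the spread between these libraries only. Each library is a bulk sample, in which fewer cells with a transcript and less of it per cell cannot be told apart.

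The members lie on 7 chromosomes (GRCh38, GENCODE release 29). The regulator PRDM1 is at chr6:106086320-106109939 on the plus strand and XBP1 at chr22:28794555-28800597 on the minus strand. Of the surface proteins, SDC1 is at chr2:20200797-20225433 (minus), CD38 at chr4:15778275-15853230 (plus) and TNFRSF17 at chr16:11965107-11968068 (plus). The genes of the endoplasmic reticulum are MZB1, at chr5:139387480-139390081 (minus), and FKBP11, at chr12:48921518-48926474 (minus).

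The XBP1 intron and the XBP1 promoter are shown because the level and the splicing of XBP1 carry most of what follows. The intron is 26 bases long and lies at chr22:28796124-28796149 on GRCh38, minus strand, in the coding part of the transcript. Capitals mark the bases that IRE1 splicing removes, with 30 bases of exon on either side, read from the GENCODE release 29 transcripts.
XBP1 unspliced: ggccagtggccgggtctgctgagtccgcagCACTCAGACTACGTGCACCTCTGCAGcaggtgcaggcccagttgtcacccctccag
XBP1 spliced: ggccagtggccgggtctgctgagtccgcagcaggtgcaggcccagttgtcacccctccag
Removal of the intron shifts the reading frame, and only the spliced form encodes the strong activator. In the annotation 2 of the 7 XBP1 transcripts lack the intron, drawn 2 bases apart with the same spliced bases.

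The RefSeq promoter table (GRCh38) held 10 windows of 300 bases for 6 of the 7 genes, each running from 250 bases before to 50 after an annotated start. They were searched on both strands for the octamer ATGCAAAT, which OCT factors bind, for the UPRE TGACGTGG, to which XBP1 binds, and for the ERSE, an element of the unfolded protein response in which CCAAT and CCACG stand 9 bases apart. The octamer was in none of the 10 windows (1.77% of all 35116 promoters in the table hold it) and the UPRE in none (0.729% of all). The ERSE was in 1 window, the outer XBP1 promoter at chr22:28800520-28800819 on the minus strand, against 0.0769% of all promoters, and overlapped no other motif searched. Capitals mark the ERSE, at -52 to -34 from the start site.
XBP1 promoter: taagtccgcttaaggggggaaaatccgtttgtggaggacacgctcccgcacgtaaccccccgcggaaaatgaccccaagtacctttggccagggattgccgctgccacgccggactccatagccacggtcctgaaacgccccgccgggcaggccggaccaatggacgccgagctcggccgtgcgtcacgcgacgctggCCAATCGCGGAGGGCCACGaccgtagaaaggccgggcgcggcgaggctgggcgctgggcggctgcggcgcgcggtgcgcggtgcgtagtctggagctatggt
A match describes letters in a window and says nothing of binding in these cells.

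The order of expression, compared as TPM (a share of all transcripts, corrected for transcript length), was similar at the top and differed at XBP1 and PRDM1 between the lines. In OCI-Ly7 controls (SD, n = 4) MZB1, a chaperone-like protein of the endoplasmic reticulum that helps IgM assembly, was highest at 432 ± 95 TPM. CD38, a surface ectoenzyme, and XBP1 followed at 107 ± 14 and 106 ± 13 TPM, and FKBP11, a peptidyl-prolyl isomerase of secretory cells, at 77.0 ± 30 TPM, 3 levels not separated beyond their spread. TNFRSF17 (BCMA), the receptor through which APRIL and BAFF keep plasma cells alive, was at 18.3 ± 3.9 TPM and PRDM1 at 1.62 ± 0.47 TPM. The single SUDHL4 control held 324 TPM of MZB1, 110 of FKBP11, 79.0 of CD38 and 18.6 of TNFRSF17, but 2.61 of XBP1 and 0.048 of PRDM1. SDC1, the surface proteoglycan syndecan-1 (CD138) that marks mature plasma cells, was listed at 0 in 16 of the 22 libraries.

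**Figure D1:**
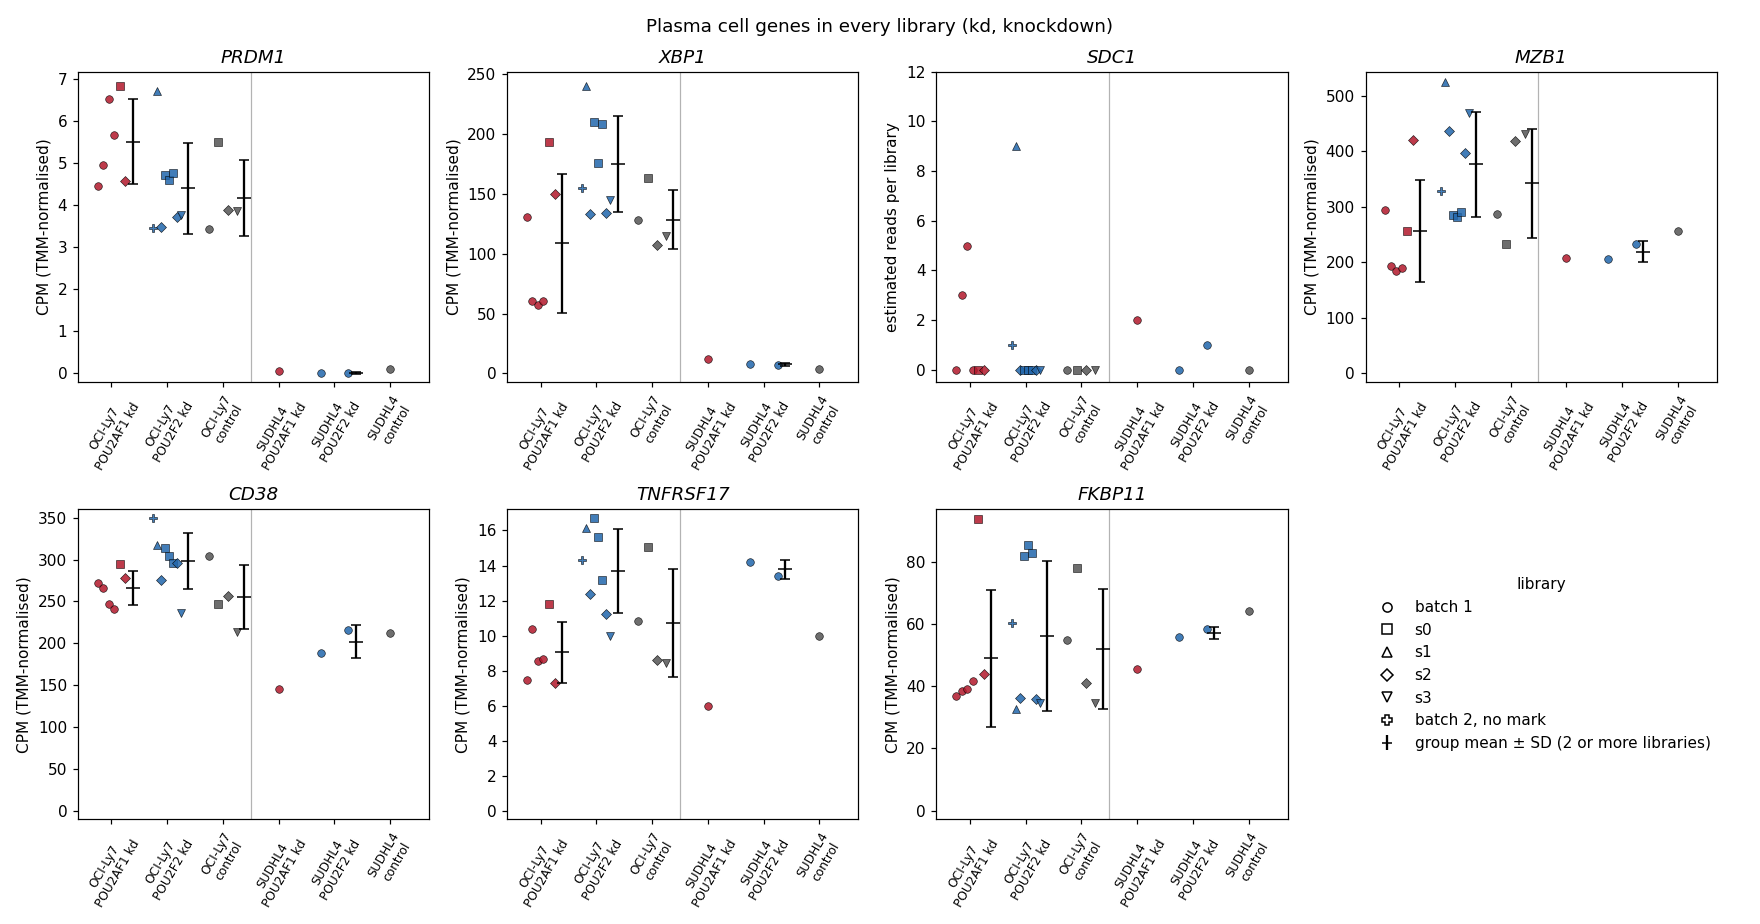
CPM of each gene in every library (estimated reads for SDC1), by line and guide, with batch or series mark as the symbol and the mean ± SD beside groups of 2 or more libraries. PRDM1 and XBP1 separate the lines, and the s0 squares stand apart from the other batch 2 libraries for FKBP11 and MZB1.

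PRDM1 and XBP1 were the members that differed between the control libraries of the 2 lines. The OCI-Ly7 controls held 3.43, 5.50, 3.88 and 3.85 CPM of PRDM1 (116 to 180 reads each), against 0.095 CPM (5 reads) in the SUDHL4 control. Of XBP1 they held 128, 163, 108 and 115 CPM, against 3.45 CPM (181 reads) in the SUDHL4 control. No OCI-Ly7 library came near the SUDHL4 levels of either gene. In the edgeR fit of all 22 libraries PRDM1 was higher in OCI-Ly7 by 5.12 ± 0.62 on the log2 scale (adjusted p = 4.3e-06) and XBP1 by 4.57 ± 0.64 (adjusted p = 2.3e-05). These 2 of 7 members compare with 23.5% of the 18918 genes tested (11% higher and 12.5% lower in OCI-Ly7). The other 4 measured members had log2 values of -0.78 ± 0.59 (FKBP11), -0.13 ± 0.41 (MZB1), -0.08 ± 0.36 (TNFRSF17) and 0.15 ± 0.22 (CD38), none past the threshold, with intervals that reach down to -2.0 for FKBP11 and up to 0.73 for MZB1. Line and culture medium cannot be told apart, and SUDHL4 is represented by 1 control library.

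PRDM1 has 2 annotated groups of start sites, and nearly all of its reads came from the outer one. In OCI-Ly7 the outer start held 1301 reads over 6 POU2AF1 knockdown libraries, 1065 over 8 POU2F2 knockdown libraries and 529 over 4 controls. Per library its transcripts held 1.05 to 2.19, 0.78 to 2.18 and 0.83 to 2.02 TPM in that order, so the groups overlapped. A shorter protein is made from the internal start, but RNA with a retained intron, not annotated as coding, was counted with it. Together they held 7.86, 86.8 and 47.1 reads in the same 3 groups. Of these, 41.5 lay in POU2F2 knockdown replicate 2 and 37.9 in control replicate 1, so single libraries hold a large share of them. In SUDHL4 PRDM1 had 3 reads in the POU2AF1 knockdown, 0 and 1 in the POU2F2 knockdown and 5 in the control, too few for a fold change.

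SDC1 reads were close to the limit of detection in both lines. In OCI-Ly7 they came to 8 over 6 POU2AF1 knockdown libraries and 10 over 8 POU2F2 knockdown libraries, against 0 over 4 controls, where a count of 0 allows up to 0.021 CPM (3 reads over the group, counting error only). Of the 10 reads, 9 lay in POU2F2 knockdown replicate 1. SUDHL4 had 2 reads in the POU2AF1 knockdown, 0 and 1 in the POU2F2 knockdown and 0 in the control. SDC1 passed the filter on low counts in neither line's own fit, and no fold change is given.

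Knockdown of POU2AF1 in OCI-Ly7 called none of the 6 members tested, against 0.887% of 16001 genes (0.281% higher and 0.606% lower). Their fitted log2 values ran from -0.22 to 0.48 with a median of -0.02, and the median over all genes was 0.00. Adjusted p was at least 0.81 for all 6. When libraries were compared within their series mark, a fit with less residual variation that called 5.59% of all genes (2.49% higher, 3.09% lower), the members again gave 0 calls. All batch 1 libraries, which carry no mark, counted as a single mark there.

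PRDM1 came nearest to a change. It was at 4.45, 4.95, 6.53 and 5.67 CPM in POU2AF1 knockdown libraries of batch 1, against 3.43 CPM in the batch 1 control. In batch 2 it was at 6.83 CPM in the knockdown library marked s0 and 4.58 CPM in the one marked s2, against 5.50 CPM in the s0 control, 3.88 CPM in the s2 control and 3.85 CPM in the s3 control. Every knockdown library was thus above the control of its own batch or mark, although the 2 groups overlapped as a whole. The fitted value was 0.48 ± 0.23 (edgeR adjusted p = 0.81) with batch and 0.45 ± 0.14 (adjusted p = 0.092) within series marks. Without replicate 1, the library rich in mitochondrial reads, the within-series value of 0.48 passed the threshold (adjusted p = 0.023), an alternative chosen after the data had been seen.

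For XBP1 the fitted values of the 2 batches had opposite signs, neither past the threshold. POU2AF1 knockdown libraries of batch 1 held 131, 60.3, 56.9 and 60.6 CPM (replicates 1 to 4), against 128 CPM in the control of that batch. Those of batch 2 held 193 CPM (s0) and 150 CPM (s2), against 163 CPM (s0), 108 CPM (s2) and 115 CPM (s3) in the controls. Replicates 2 to 4 were below all 4 controls and replicate 1, the mitochondrial-rich library, matched the batch 1 control. The log2 value was -0.07 ± 0.27 over both batches (edgeR adjusted p = 1.00), -0.72 in batch 1 alone (adjusted p = 0.82) and 0.44 in batch 2 alone (adjusted p = 1), and the difference between the batches was not tested. Batch 1 has a single control library. Without it the value was 0.43, which rests on batch 2 alone, since only POU2AF1 knockdown libraries were then left in batch 1.

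For the other members the POU2AF1 knockdown libraries overlapped with the controls. MZB1 ran from 185 to 421 CPM with a median of 225 CPM in the knockdown, against 287, 232, 418 and 431 CPM in the controls. Here too replicates 2 to 4 lay lowest, at 194, 185 and 190 CPM, and the fitted value was -0.22 ± 0.24. CD38 was at 241 to 295 CPM (median 269) in the knockdown, against 305, 247, 257 and 213 CPM in the controls. TNFRSF17 was at 7.28 to 11.8 CPM (median 8.62) in the knockdown, against 10.9, 15.1, 8.61 and 8.44 CPM in the controls. The groups overlapped for each of these genes, and the fitted values were 0.05 ± 0.12 for CD38 and -0.22 ± 0.21 for TNFRSF17. For TNFRSF17, though, every knockdown library was below the control of its own batch or mark. Its value within series marks was -0.30 ± 0.12 (edgeR adjusted p = 0.21). FKBP11 was at 36.9 to 93.6 CPM (median 40.5) in the knockdown, against 54.9, 78.1, 41 and 34.5 CPM in the controls, with a value of 0.04 ± 0.35 and, within series marks, -0.11 ± 0.11.

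Knockdown of POU2F2 in OCI-Ly7 also called none of the 6 members tested by edgeR, and 0% of the 16001 genes passed. At an unadjusted p below 0.05 there were 283 genes, no member among them, and DESeq2 called 5 genes and no member. Within series marks 0.0812% of genes were called, again with no member. XBP1 ran from 133 to 240 CPM with a median of 165 CPM in the knockdown, against 128, 163, 108 and 115 CPM in the controls, a fitted value of 0.23 ± 0.27. TNFRSF17 was at 9.96 to 16.7 CPM (median 13.7) in the knockdown, against 10.9, 15.1, 8.61 and 8.44 CPM in the controls (0.33 ± 0.19), and CD38 at 236 to 350 CPM (median 300.4) against 305, 247, 257 and 213 CPM (0.23 ± 0.12). Both groups overlapped for all 3. The knockdown libraries held 3.47 to 6.70 CPM of PRDM1 (median 4.19), 281 to 525 CPM of MZB1 (median 362) and 32.8 to 85.3 CPM of FKBP11 (median 48.2), each overlapping the controls, with fitted values of 0.04 ± 0.20, 0.01 ± 0.23 and -0.03 ± 0.34. For XBP1 the 95% interval ran from -0.34 to 0.80 and for FKBP11 from -0.74 to 0.68, so changes within these ranges are not excluded.

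**Figure D2:**
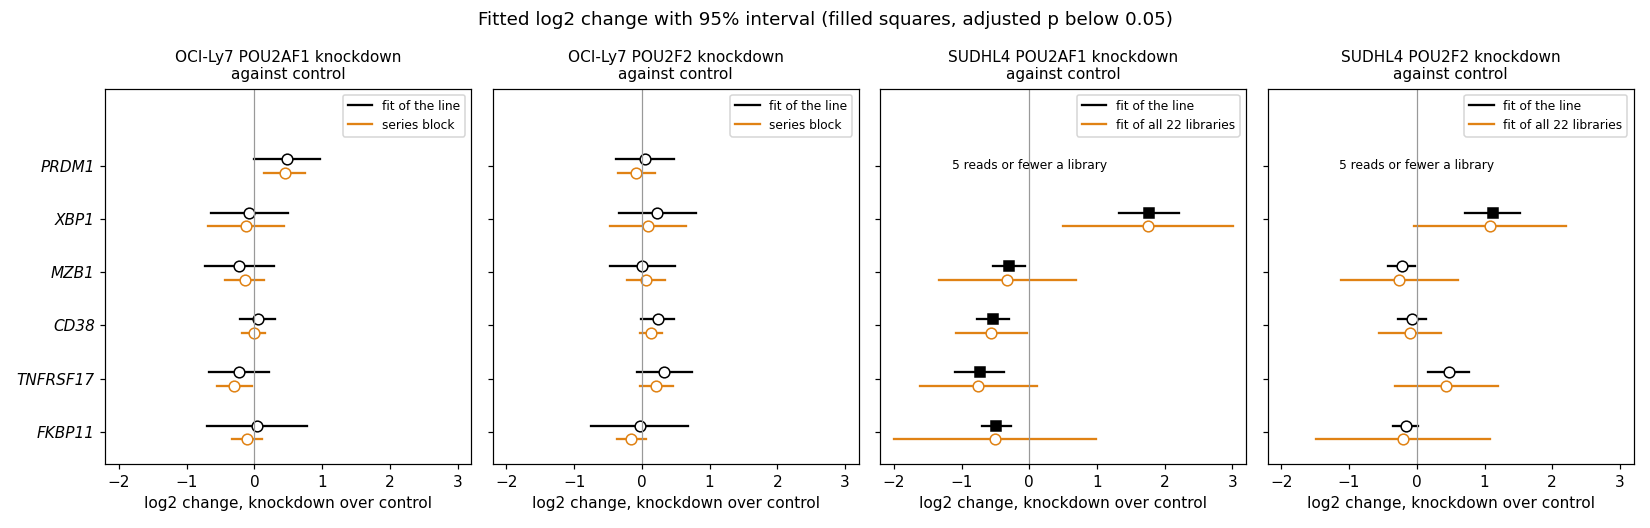
Fitted log2 change of 6 genes with 95% intervals in the 4 comparisons, by the fit of the line (black) and by a second fit (orange, within series marks in OCI-Ly7 and over all 22 libraries in SUDHL4). Filled squares mark adjusted p below 0.05, which only SUDHL4 genes reached, XBP1 to the right and 4 others to the left after POU2AF1 knockdown.

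The 2 knockdowns of OCI-Ly7 were also set against each other directly, and 0 of 6 members were called (0.162% of all genes, and 1.26% within series marks, where again no member was called). The controls stayed in these fits and helped to set the batch or mark terms and the spread. TNFRSF17 had the largest value, 0.55 ± 0.22 higher with POU2F2 knockdown than with POU2AF1 knockdown (edgeR unadjusted p = 0.019, adjusted p = 0.98, and 0.068 within series marks). All 8 POU2F2 knockdown libraries were at or above 9.96 CPM, and 4 of the 6 POU2AF1 knockdown libraries were below that level. Those 4 were replicates 1, 3 and 4, of batch 1, and replicate 6, of batch 2. Every POU2F2 knockdown library was labelled batch 2, so this split of raw levels also compares batches. PRDM1 pointed the other way, at -0.44 ± 0.23.

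In SUDHL4 XBP1 rose and 4 other members fell after POU2AF1 knockdown in the fit of that line, all 5 members that could be tested, against 36.8% of 16973 genes (18% higher and 18.8% lower). XBP1 stood at 11.8 CPM (670 reads) in the POU2AF1 knockdown, against 3.45 CPM (181 reads) in the control, a log2 change of 1.77 ± 0.22 (edgeR adjusted p = 4.8e-08). TNFRSF17 fell to 5.99 CPM in the knockdown, against 9.96 CPM in the control (-0.73 ± 0.18, adjusted p = 0.0013). CD38 was at 146 CPM in the knockdown and 212 CPM in the control (-0.54 ± 0.12, adjusted p = 0.00037). FKBP11 was at 45.7 CPM in the knockdown and 64.2 CPM in the control (-0.49 ± 0.10, adjusted p = 0.00032), and MZB1 at 207.5 CPM against 256 CPM (-0.30 ± 0.12, adjusted p = 0.039). The median of the 5 was -0.49 and that of all genes 0.01.

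Those 5 calls compare 1 library with 1 library, and the error is borrowed from the 2 POU2F2 knockdown libraries. In the fit of all 22 libraries, which takes its spread mainly from OCI-Ly7 and called 1.66% of genes, none of the 5 was called, with adjusted p from 0.18 for XBP1 to 0.91 for MZB1. A missing call there does not show that a gene was unchanged. The sum of the 6 B cell markers was 5414 CPM in the knockdown library and 2138 CPM in the control, and that of the 6 germinal centre markers 633 CPM and 1220 CPM. Whether these have a part in the members' values was not tested.

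POU2F2 knockdown in SUDHL4 called 1 of the 5 members tested, against 7.35% of genes (4.79% higher, 2.56% lower), and it was again XBP1. XBP1 was at 8.20 and 6.79 CPM in the POU2F2 knockdown libraries, against 3.45 CPM in the control, a log2 change of 1.12 ± 0.20 (edgeR adjusted p = 0.00017). All 3 SUDHL4 knockdown libraries were therefore above the control of the line, and each stayed below the lowest OCI-Ly7 library, at 56.9 CPM. TNFRSF17 was at 14.2 and 13.4 CPM in the POU2F2 knockdown, against 9.96 CPM in the control (0.47 ± 0.15, adjusted p = 0.0503). CD38, FKBP11 and MZB1 had values of -0.07 ± 0.10, -0.17 ± 0.09 and -0.23 ± 0.10. The fit of all libraries called 0.0951% of genes and none of the members (XBP1 1.09 ± 0.54, unadjusted p = 0.057). For XBP1, limma on TPM gave 1.01 (adjusted p = 0.075), and DESeq2 gave 1.11 (adjusted p = 0.030).

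Set against each other, the SUDHL4 knockdowns differed in 4 of 5 members in the fit of that line (26.2% of genes, 13.8% higher and 12.4% lower). XBP1 was lower with POU2F2 knockdown than with POU2AF1 knockdown by 0.65 ± 0.17 on the log2 scale (a value of -0.65, edgeR adjusted p = 0.0044). TNFRSF17 was higher by 1.20 ± 0.16 (adjusted p = 4.1e-07), CD38 by 0.47 ± 0.10 (adjusted p = 0.00065) and FKBP11 by 0.32 ± 0.09 (adjusted p = 0.0079). The fit of all libraries called 0.196% of genes and no member. TNFRSF17, CD38 and MZB1 had positive values in this contrast in both lines, and of these TNFRSF17 and CD38 passed the threshold in SUDHL4's own fit alone.

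The difference of response between the lines was tested directly as an interaction, and no member was called for POU2AF1 (0.798% of all genes called) or for POU2F2 (0.0106%). XBP1 had the lowest adjusted p for POU2AF1, with a response lower in OCI-Ly7 than in SUDHL4 by a log2 value of -1.83 ± 0.65 (unadjusted p = 0.011, edgeR adjusted p = 0.26). Its interval ran from -3.20 to -0.47.

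Splicing of XBP1 was measured as the share of XBP1 TPM that Salmon assigned to the 2 transcripts without the intron. In OCI-Ly7 it was 43.3%, 23.8%, 40.9%, 40.8%, 21.9% and 15.1% in POU2AF1 knockdown replicates 1 to 6, against 39.8%, 13%, 24.7% and 24.2% in control replicates 1, 7, 8 and 9. The POU2F2 knockdown libraries ran from 12.7% to 57.4% with all but replicate 1 at or below 31.3%. Group means were 31.0% ± 12 (SD, n = 6) with POU2AF1 knockdown, 28.6% ± 13 (SD, n = 8) with POU2F2 knockdown and 25.4% ± 11 (SD, n = 4) in controls. By a two-sided exact permutation test POU2AF1 knockdown differed from control by 5.53 percentage points (p = 0.457, smallest p possible 0.0095) and POU2F2 knockdown by 3.18 points (p = 0.78, smallest possible 0.0040). The direction of the second difference rests on single libraries, since it was -0.93 points without POU2F2 knockdown replicate 1 and -0.97 points without control replicate 7. In batch 2 alone, which holds every POU2F2 knockdown library, that difference was 7.97 points (28.6% against 20.7%, exact permutation p = 0.34).

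Batch 1 libraries of OCI-Ly7 held 23.8% to 43.3% whichever guide they carried. In batch 2 alone the difference of POU2AF1 knockdown from control was -2.15 points (18.5% against 20.7%, exact permutation p = 0.60, with 2 libraries against 3 and no p below 0.20 possible). Without control replicate 1 the difference of the POU2AF1 knockdown grew to 10.3 points, and without control replicate 7 it shrank to 1.38 points, the extremes when each library was left out in turn. In the 1 OCI-Ly7 library with repeat files the estimate of the share was steady. Its files, 1 and 2 of the control, gave 39.5% and 40.1% from about 3289 and 3429 reads. In SUDHL4 it was not, since the repeat files of the POU2AF1 knockdown library gave 0% and 35.0% from 350 and 320 reads, so the shares of 7.55% and 49.0% in the POU2F2 knockdown and 0% in the control (181 reads) bear no comparison. XBP1P1, a processed pseudogene of XBP1, held at most 9 reads in any library.

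**Figure D3:**
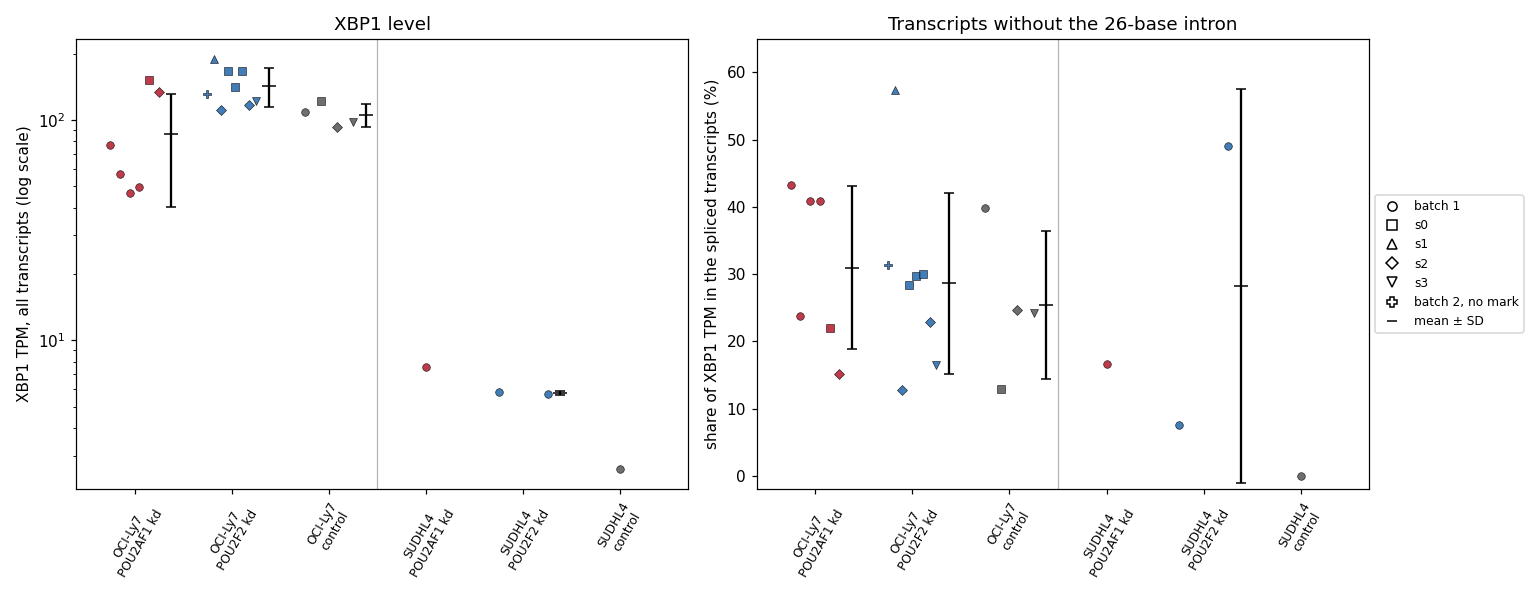
Left, XBP1 TPM over all transcripts on a log scale. Right, the percentage of XBP1 TPM in the 2 transcripts without the 26-base intron, each point 1 library, with the mean ± SD for groups of 2 or more. SUDHL4 lies at 2.61 to 7.6 TPM, OCI-Ly7 at 46.8 to 189 TPM, and the spliced shares of the 3 OCI-Ly7 groups overlap.

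FKBP11 and MZB1 differed with the series mark in batch 2 of OCI-Ly7. FKBP11 was at 78.1 to 93.6 CPM in the 5 libraries marked s0, from 3 groups, and at 32.8 to 43.9 CPM in the 7 libraries marked s1, s2 or s3. MZB1 ran the other way, with 232 to 290 CPM in the s0 libraries and 397 to 525 CPM in the other marked libraries. Neither gene overlapped between the 2 sets of libraries, as was the case for 39.1% of the 16001 genes tested in OCI-Ly7, so 2 of 7 members is no more than the share over all genes. The other members overlapped, with CD38 at 247 to 314 CPM in s0 and 213 to 317 CPM in the others, XBP1 at 163 to 209.9 CPM and 108 to 240.1 CPM, TNFRSF17 at 11.8 to 16.7 CPM and 7.28 to 16.1 CPM, and PRDM1 at 4.61 to 6.83 CPM and 3.48 to 6.70 CPM. Within s0, FKBP11 was at 93.6 CPM in the POU2AF1 knockdown library and at 81.9, 85.3 and 82.9 CPM in the POU2F2 knockdown libraries, against 78.1 CPM in the control. The sources used here do not say what the mark stands for. These sets were drawn after the values had been seen, so no test is given.

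**Figure D4:**
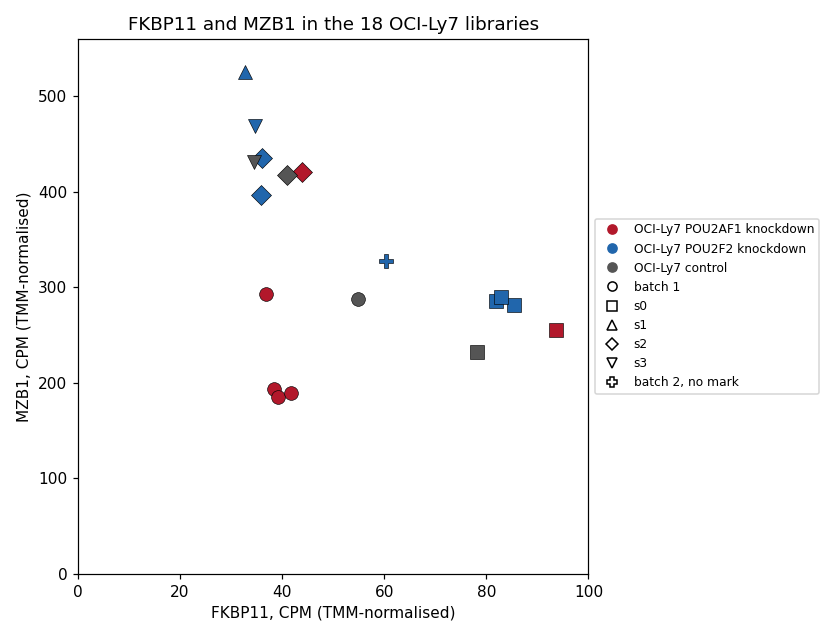
FKBP11 and MZB1 in CPM in the 18 OCI-Ly7 libraries, coloured by guide, with the symbol for batch or series mark. The 5 s0 libraries lie at 78.1 CPM or more of FKBP11 and 290 CPM or less of MZB1, whichever guide they carried.

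The genes most like each member across the 18 OCI-Ly7 libraries were found by Pearson's r of log2 CPM, as a description, since libraries share batches and marks. FKBP11 was closest to DDOST (r = 0.98), a subunit of the oligosaccharyltransferase, to SAMM50 (0.97) and to PPIB (0.97), another isomerase of the endoplasmic reticulum. MZB1 was closest to EVL (0.97), YBX2 (0.97) and SGSM3 (0.96), and XBP1 to TRIB1 (0.93), ERGIC1 (0.93) and CHEK2 (0.93). For PRDM1 the 3 were PSPC1 (0.86), TAGLN2 (0.86) and SNX11 (0.84), for TNFRSF17 HLA-DQA1 (0.84), TMCO3 (0.84) and CSGALNACT2 (0.84), and for CD38 ENDOD1 (0.82), GPATCH11 (0.76) and STOX1 (0.75). Among the members themselves r was highest for XBP1 with TNFRSF17 (0.62) and lowest for PRDM1 with MZB1 (-0.46).

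Not all RNA of these genes was annotated as coding. Over the 22 libraries the median share of TPM in coding transcripts was 100% for TNFRSF17, 91.9% for XBP1, 86.0% for FKBP11, 62.6% for CD38 and 54.2% for MZB1. Transcripts with a retained intron took 24.4% to 41.6% of MZB1 and 10.5% to 22.3% of CD38. The MZB1 share was 24.4% to 36.4% after POU2AF1 knockdown and 27.7% to 41.6% after POU2F2 knockdown in OCI-Ly7, against 26.3% to 38.4% in controls, so the 3 groups overlapped.

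Of 57 other genes of the plasma cell pathway, in 5 lists, those that moved in OCI-Ly7 were factors of the B cell state and 1 gene of secretion. POU2AF1 knockdown called 3 of 52 tested, all lower, against 0.887% of all genes (0.606% lower). BCL6, the repressor that holds the germinal centre state and represses PRDM1, fell to 117 ± 29 CPM in the knockdown (SD, n = 6), against 345 ± 52 CPM in controls (SD, n = 4), with a log2 change of -1.44 ± 0.18 (edgeR adjusted p = 0.00041). IRF8, a factor of germinal centre B cells, averaged 76.9 ± 12 CPM in the knockdown and 180 ± 22 CPM in controls (-1.22 ± 0.14, adjusted p = 0.00015), and it was the 1 pathway gene called between the OCI-Ly7 knockdowns, higher with POU2F2 knockdown by 0.98 ± 0.14 (adjusted p = 0.0059; 0.137% of all genes higher and 0.025% lower). SYVN1, the ubiquitin ligase of endoplasmic reticulum degradation, averaged 296 ± 46 CPM in the knockdown and 483 ± 40 CPM in controls (-0.70 ± 0.13, adjusted p = 0.011). Within series marks the count was 3 higher and 9 lower, 6 of the 9 among the 24 genes of the secretory machinery, against 2.49% of all genes higher and 3.09% lower. POU2F2 knockdown called 0 of the 52 and 0% of all genes (1 of 52 within series marks, lower, against 0.0812% of all genes), and BCL6 had a value of -0.66 ± 0.16 there.

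In SUDHL4, POU2AF1 knockdown gave 19 higher and 9 lower of 53 tested in the fit of that line, against 18% of all genes higher and 18.8% lower. The fit of all libraries gave 2 higher and 1 lower, against 1.66% of all genes. These 3 were FCRL5, PAX5 and BCL6. FCRL5, an Fc receptor-like protein of B and plasma cells, was at 44.2 CPM in the POU2AF1 knockdown and at 4.55 and 5.39 CPM in the POU2F2 knockdown, against 1.37 CPM in the control. Its log2 change with POU2AF1 knockdown was 5.01 ± 0.20 (edgeR adjusted p = 8.9e-20 by the line's fit and 0.0035 over all libraries), while in OCI-Ly7 it was 0.00 ± 0.35. PAX5, the factor of B cell identity that BLIMP1 represses, was at 337 CPM in the POU2AF1 knockdown, against 103 CPM in the control (1.72 ± 0.14, adjusted p = 4.5e-08 by the line's fit and 0.0068 over all libraries). BCL6 was at 223 CPM in the POU2AF1 knockdown, against 645 CPM in the control (-1.53 ± 0.13, adjusted p = 1.2e-11 by the line's fit and 0.039 over all libraries). POU2F2 knockdown gave 12 higher and 3 lower in the fit of the line (4.79% of all genes higher, 2.56% lower) and 0 over all libraries (0.0951%). Between the SUDHL4 knockdowns the fit of the line gave 7 higher and 12 lower with POU2F2 knockdown (13.8% of all genes higher, 12.4% lower), and over all libraries (0.196%) FCRL5 alone was called, lower by a log2 value of -3.17 ± 0.59 (adjusted p = 0.030).

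By list, the SUDHL4 calls after POU2AF1 knockdown were 7 higher and 1 lower of 12 tested genes of the plasma cell surface and survival, 5 higher and 5 lower of 24 of the secretory machinery, 6 higher and 2 lower of 10 factors that hold the B cell state, and 1 higher and 1 lower of 6 regulators that promote plasma cells. With 36.8% of all genes called, the counts for the secretory machinery and for the regulators lay near the background. The median log2 values of the 4 lists were 0.53, 0.07, 0.42 and -0.21, beside 0.01 for all genes. IRF8 and SYVN1, lower after POU2AF1 knockdown in OCI-Ly7, rose in SUDHL4 by 0.43 ± 0.11 (edgeR adjusted p = 0.0019) and 0.54 ± 0.12 (adjusted p = 0.00052) in the fit of the line, with adjusted p of 0.64 and 0.46 over all libraries. Tested as a difference of response, OCI-Ly7 minus SUDHL4, FCRL5 (-4.99 ± 0.89, edgeR adjusted p = 0.0078), PAX5 (-1.71 ± 0.34, adjusted p = 0.019) and IRF8 (-1.64 ± 0.31, adjusted p = 0.014) differed between the lines, while SYVN1 (-1.22 ± 0.30, adjusted p = 0.060) and BCL6 (0.10 ± 0.41) did not pass. Of the 2 ligands of the TNFRSF17 family, 1 passed the filter on low counts and it was called in no knockdown comparison. Between the controls of the lines, 16 of the 53 tested genes were higher and 8 lower in OCI-Ly7 (11% and 12.5% of all genes), among them FCRL5 (5.57 ± 0.84, adjusted p = 5.3e-05), PAX5 (1.47 ± 0.28, adjusted p = 0.00068) and BCL6 (-1.29 ± 0.30, adjusted p = 0.0036).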

How the data were processed

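Per the submitters' processing notes, the authors used fastp and then Salmon 1.5.1, with the build GRCh38.p13. The deposited tables hold estimated counts and TPM for 227912 transcripts, of which 205964 were matched to genes of GENCODE release 29 by identifier, holding 98.4% to 98.9% of each file's reads. For each gene the deposited estimated counts were added up and rounded, and the deposited TPM values were added up likewise. Symbols came from a gene table (58201 of 58592 genes).

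Of 26 files, 3 pairs within groups differed by about the sampling noise (ratios of 1.11 to 1.14, against 2.64 to 124 for 53 other pairs) and were merged. The OCI-Ly7 control file labelled 48 h was the sum of a pair and was dropped, leaving 22 libraries. OCI-Ly7 has 1 control library of batch 1 and 3 of batch 2, 4 and 2 POU2AF1 knockdown libraries, and 8 POU2F2 knockdown libraries, all labelled batch 2. The label of POU2F2 knockdown replicate 3 is in doubt, since it has no series mark and its description has the form of batch 1 descriptions. Batch 1 was therefore tried for it as an alternative. It also held the most POU2F2 of its group, at 150 CPM. SUDHL4 is of batch 1.

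edgeR 4.0.16 (TMM, filterByExpr at 10 counts, robust quasi-likelihood test) was fitted per line over all genes, OCI-Ly7 with a batch term, and called genes at a Benjamini-Hochberg adjusted p below 0.05. The fits' biological coefficients of variation were 0.297 for OCI-Ly7, 0.0779 for SUDHL4 (1 residual degree of freedom) and 0.146 within series marks. The fit within series marks took all of batch 1 as a single block. In it POU2F2 knockdown replicates 1 (s1) and 3 (unmarked) each stood alone in a block, so they did not inform its contrasts. All libraries in 1 fit gave the comparison of lines and the interactions. Errors are standard errors for log2 values and SD for levels. CPM are TMM-normalised. Splice shares use TPM, and intervals are 95% intervals. limma 3.58.1, DESeq2 1.42.0, and scipy 1.17.1 for permutation tests were also used. The scripts were tested on simulated data, in which 66 or 67 genes changed by each of 1.5-fold, 2-fold and 4-fold. All other genes were left unchanged. There 24.5% of calls by SUDHL4's own edgeR fit were false for POU2AF1 knockdown and 26% for POU2F2 knockdown, above the threshold's share. The fit to the real libraries called many more genes (36.8% and 7.35%), so these shares are not estimates for the real calls. DESeq2 in OCI-Ly7 gave 25.1% and 17.8% for the same knockdowns. In the fit of all libraries 3.45% to 5.56% of calls were false, near the threshold's share. That fit found 42.4% to 66.7% of 4-fold changes and at most 11.9% of 2-fold changes. OCI-Ly7's own edgeR fit found 10.4% of 1.5-fold and 59.7% of 2-fold changes for POU2AF1 knockdown. For POU2F2 knockdown it found 17.9% and 68.7%.

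The members and the lists were chosen with earlier results of these data known. Named in the text were all 7 members and those pathway genes called in a knockdown comparison by the fit of the line and, in SUDHL4, also by the fit of all libraries, plus the 3 genes most like each member.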

Additional observations from a re-analysis of the deposited data

Results flagged for a closer look

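Each group of 4 to 8 OCI-Ly7 libraries was examined for a highest or lowest library far from the others, in 23 sets of values, of which chance gives about 1 in 20. POU2F2 knockdown replicate 1, the single library marked s1, stood apart from the other 7 of its group in 3 of them. It held 6.70 CPM of PRDM1, where the next library had 4.77 CPM. SDC1 was at 0.321 CPM there, which is 9 reads, and at most 0.022 CPM in the other 7. Its XBP1 spliced share was 57.4%, with the next library at 31.3%. In the POU2AF1 knockdown, replicate 5 stood out with 93.6 CPM of FKBP11, against 43.9 CPM in the next of the 6 libraries, and it is the only one of that group marked s0.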

How the results depend on the processing

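The number of members called in the OCI-Ly7 comparisons with control was 0 under every alternative run (low counts unfiltered, RLE size factors, DESeq2, limma on TPM with a pseudocount of 0.5, no mitochondrial genes, unmerged files, POU2F2 knockdown replicate 3 in batch 1, single batches, series marks), except that comparison within series marks without POU2AF1 knockdown replicate 1 called 1, PRDM1. The direct contrast of the OCI-Ly7 knockdowns was run with low counts unfiltered, RLE size factors, DESeq2 and series marks, and gave 0. Leaving out each library in turn from the fit with batch called no member for POU2AF1 knockdown, for POU2F2 knockdown or for the direct contrast. The line comparison gave 2 throughout, also over its 4 leave-outs (2 to 2). In SUDHL4 the counts depended on the fit. POU2AF1 knockdown (5 members) gave 3 with DESeq2 and 0 with all libraries in 1 fit. POU2F2 knockdown (1 member) gave 2 with RLE size factors and without mitochondrial genes, 4 with unmerged files (where 3761 of 15035 genes were called, against 1247 of 16973 in the merged libraries), and 0 with limma on TPM and with all libraries in 1 fit. The direct contrast (4 members) gave 2 with DESeq2 and 0 with all libraries in 1 fit. Without either POU2F2 knockdown library the fit of all libraries called 0 to 0 members in each SUDHL4 comparison. Apart from the wider spread in the fit of all libraries, the cause was not tested. With each library left out, the XBP1 spliced share differed from control by 1.38 to 10.3 percentage points for POU2AF1 knockdown and by -0.97 to 7.97 for POU2F2 knockdown, with no p below the threshold. Replicate numbers do not pair the samples (same-numbered libraries deviated with r from -0.53 to 0.76), and a replicate block called 0 members in both OCI-Ly7 comparisons while all-gene calls were 742 for POU2AF1 and 0 for POU2F2 knockdown. No called value changed its sign. SDC1 in both lines and PRDM1 in SUDHL4 were limited by depth, at 9 reads or fewer a library.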
